A study of Mus musculus with 8 samples.

Results

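The genes followed here act in the control of transcription elongation: Ell, Ell2, Ell3, Aff1, Aff4, Cdk9, Ccnt1, Ccnt2, Hexim1 and Larp7. They were chosen by symbol, as 10 of the 27710 genes listed in each library, because they encode the super elongation complex, the kinase P-TEFb and its 7SK inhibitors. The choice also used the observation that Ell2 was lower in libraries of cells fed 4-thiouridine (s4U), so every fed against unlabelled value of these genes is a description without a test. The libraries came from lineage-depleted mouse bone marrow, which is enriched for blood stem and progenitor cells, cultured with cytokines that included SCF, Flt3L and IL3. There were 4 groups. WT cells were fed s4U at 100 µM for 2 h in 3 libraries and given no agent in 1 library. Cells labelled Vav-iCre+; Alkbh5fl/fl, in which Cre is expressed in blood cells and removes the RNA demethylase gene Alkbh5, were likewise fed in 3 libraries and unlabelled in 1. All libraries were made from total RNA after TimeLapse chemistry, which turns s4U into a base that sequencing reads as C. The labels give neither the age of the mice nor whether WT cells carried Cre, and cells outside the blood lineage would keep Alkbh5. No label ties a replicate to its own animal, so p-values reflect only how much these libraries vary.

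RNA polymerase II pauses soon after it starts a gene. P-TEFb, made of the kinase CDK9 and cyclin T1 or T2, phosphorylates the polymerase and the pausing factors NELF and DSIF and so releases it. Much of the cell's P-TEFb is held inactive on the small nuclear RNA 7SK by HEXIM1, with LARP7 and MEPCE protecting that RNA, and the scaffold proteins AFF1 and AFF4 join active P-TEFb to the elongation factors ELL, ELL2 or ELL3 in the super elongation complex. ELL2 is best known for driving the processing of immunoglobulin transcripts in plasma cells, and HEXIM1 is known to be induced when P-TEFb is released.

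The members differ widely in base composition, a property that moved with the fed against unlabelled contrast. Uridine made up 29.5% of the merged exons of Ell2 and 31.6% of those of Ccnt2, against 23.8% for Hexim1 and 20.8% for Larp7. The median of 14060 tested genes was 25.5%. One coding stretch of 60 bases from each of these genes, picked because its U share is nearest to that of the whole gene, shows what these shares look like. They come from GENCODE M21 transcripts (GRCm38) at chr13:75746295-75746354 on the plus strand (Ell2), chr1:127775111-127775170 on the plus strand (Ccnt2), chr11:103116934-103116993 on the plus strand (Hexim1) and chr3:127547366-127547425 on the minus strand (Larp7). The Ell2 gene spans 65.6 kb at chr13:75706757-75772364, and all 4 stretches lie within a coding exon. Capitals mark U, written as T, and the stretches hold 18, 19, 14 and 12 of them.
Ell2: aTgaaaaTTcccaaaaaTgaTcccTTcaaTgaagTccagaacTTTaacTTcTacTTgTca
Ccnt2: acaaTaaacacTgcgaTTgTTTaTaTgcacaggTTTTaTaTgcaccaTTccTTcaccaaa
Hexim1: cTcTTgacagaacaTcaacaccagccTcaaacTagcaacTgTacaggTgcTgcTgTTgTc
Larp7: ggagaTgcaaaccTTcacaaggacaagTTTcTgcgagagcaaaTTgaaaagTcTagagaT
Coding sequence alone was poorer in U than the merged exons in every member, for example 21.4% against 29.5% in Ell2 and 13.7% against 23.8% in Hexim1.

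Counts assigned to genes totalled 5723245 to 8615997 per library. Alkbh5 had 1061 to 1479 counts in the WT libraries and 0 or 1 in each library labelled as deficient. All 10 stem and progenitor markers examined, among them Kit and Myb, were detected, with summed levels of 588 to 726 normalized CPM, the count scaled by library size, across the fed libraries and 692 and 689 CPM in the unlabelled ones. Some libraries stood apart from the rest. Both unlabelled libraries held Xist (9147 and 8770 counts) as well as the Y-linked Ddx3y (299 and 511 counts). Each fed library had at most 2 counts of one of them, so feeding and the source of the cells cannot be told apart. In both genotypes, fed libraries numbered 2 held Xist (17471 and 13896 counts) and no Ddx3y. Those numbered 1 and 3 held Ddx3y (200 to 552 counts) and at most 2 counts of Xist, so these genes followed the replicate number. Fed libraries numbered 1 had 38.3% (WT) and 37.6% (Alkbh5-deficient) of reads in no gene, against 48.9% to 52.1% in the others. In WT fed replicate 3 the predicted gene Gm26917 took 14.2% of gene counts, against 6.33% to 8.34% elsewhere.

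Ell3 was close to undetected and the 9 other members were expressed. Levels between genes were compared as CPM per kb of merged exons, over the 6 fed libraries. Larp7, whose protein binds and protects 7SK, was highest with a range of 43.1 to 59.7 CPM per kb, and Aff1, a scaffold of the super elongation complex, followed with 36.5 to 40.3. Cdk9, the kinase itself, ranged from 19.7 to 27.4 and Hexim1, its inhibitor, from 15.1 to 21.7 CPM per kb. Aff4, the other scaffold, ranged from 12.2 to 16.0, Ell from 11.7 to 13.7 and the cyclin gene Ccnt1 from 8.48 to 13.0 CPM per kb. Ell2 ranged from 4.72 to 7.53 and the second cyclin gene, Ccnt2, from 3.94 to 7.08 CPM per kb. Neighbours in this order had overlapping ranges from Cdk9 through Hexim1, Aff4 and Ell to Ccnt1, and so did Ell2 and Ccnt2, while Larp7, Aff1 and Cdk9 were separate from each other and Ell2 from Ccnt1. Larp7 lay above 93.5% of the 14060 tested genes with a known length and Ccnt2 above 50.0% of them. Ell3 had 1 count in each of 3 libraries (WT unlabelled, WT fed replicate 2 and Alkbh5-deficient fed replicate 2) and 0 in the other 5. Reads shared by Ell3 and its neighbour Serinc4, which are assigned to neither, numbered 0 to 4 per library. Ell3 did not pass the low-count filter and was not tested, so 9 of the 10 members enter the comparisons. With the length of the longest annotated transcript in place of merged exons, Aff4 came before Hexim1 and Ccnt1 before Ell, and the mean level of Ell2 rose from 6.37 to 12.2 CPM per kb without a change of its place. Its range, 9.05 to 14.4 CPM per kb, then overlapped those of Ccnt1 and Ell, so the separation of Ell2 from Ccnt1 was lost.

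**Figure D1:**
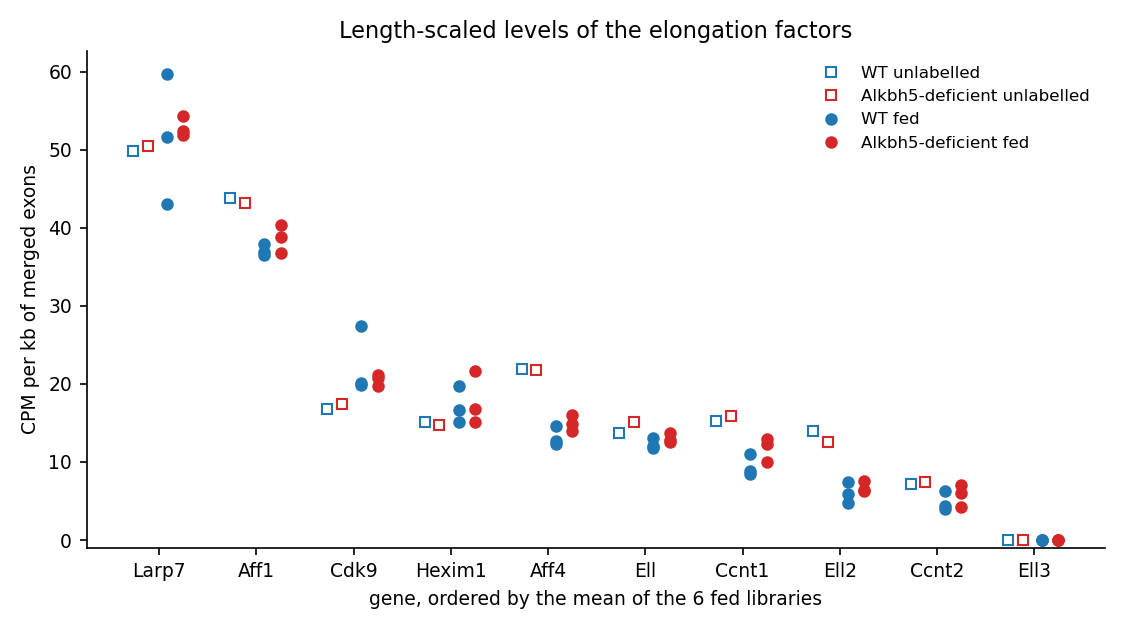
Levels of the 10 genes in CPM per kb of merged exons (vertical axis), with genes ordered by the mean of the 6 fed libraries (horizontal axis). Squares are unlabelled and circles fed libraries, blue WT and red Alkbh5-deficient, 1 point per library. Larp7 and Aff1 lie above the others and Ell3 at or near 0.

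Ell2 was the member with the largest difference between fed and unlabelled libraries. It measured 138 CPM in the unlabelled WT library and 57.6, 73.3 and 46.4 CPM in the WT fed libraries. In Alkbh5-deficient cells it measured 123 CPM unlabelled and 61.5, 63.0 and 74.0 CPM fed. All 6 fed libraries lay below both unlabelled ones, with a gap between 74.0 and 123 CPM. The pooled fed level was 44.7% of unlabelled in WT (95% exact counting interval 41.1% to 48.6%) and 53.9% in Alkbh5-deficient cells (49.8% to 58.3%). These intervals cover counting error only. The edgeR log2 fold change adjusted for genotype was -1.06 ± 0.17 (SE, 6 fed against 2 unlabelled libraries). It lay between -1.22 and -0.90 when any 1 library was left out. Of 9025 tested genes with a mean of at least 10 CPM, 18 had a lower value. The choice of genes used this difference, so that rank is a description only. In bulk libraries, fewer cells that contain a transcript and less of it per cell cannot be told apart.

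The scaffold genes and Ell were also lower in the fed libraries, by less than Ell2. Aff4 measured 295 and 293 CPM in the WT and Alkbh5-deficient unlabelled libraries and 170, 197 and 165 CPM in WT fed and 188, 201 and 216 CPM in Alkbh5-deficient fed libraries, which gave a log2 fold change of -0.64 ± 0.13 (SE). Aff1, the paralogous scaffold, measured 414 and 408 CPM unlabelled, and the fed libraries had 349, 358 and 346 CPM in WT and 367, 348 and 382 CPM in Alkbh5-deficient cells (-0.20 ± 0.12). Ell, the paralogue of Ell2, measured 42.8 and 46.9 CPM unlabelled against 36.5, 37.6 and 40.7 CPM in WT fed and 39.0, 39.7 and 42.6 CPM in Alkbh5-deficient fed libraries (-0.19 ± 0.13). The groups did not overlap for any of these 3 genes, but for Ell the gap was narrow, between 42.6 CPM in the highest fed and 42.8 CPM in the lowest unlabelled library.

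Within P-TEFb, both cyclin genes had negative values and the kinase gene a positive one. Ccnt1 measured 140 and 146 CPM unlabelled, 77.6, 101 and 81.3 CPM in WT fed and 91.1, 113 and 119 CPM in Alkbh5-deficient fed libraries, which gave a log2 fold change of -0.57 ± 0.16 (SE). Ccnt2 measured 88.3 and 92.5 CPM unlabelled, 48.6, 77.5 and 54.2 CPM in WT fed and 51.5, 74.9 and 87.4 CPM in Alkbh5-deficient fed libraries (-0.46 ± 0.22). Its highest fed value, 87.4 CPM, came close to the lower unlabelled one, 88.3 CPM, and it had the widest spread of the 9 genes, with a coefficient of variation of 24.7% over the fed libraries. Cdk9 was higher in the fed libraries, at 92.8, 91.5 and 126 CPM in WT and 95.6, 97.3 and 90.8 CPM in Alkbh5-deficient cells. The unlabelled libraries had 77.7 and 80.5 CPM, which gave a log2 fold change of 0.32 ± 0.16.

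The inhibitor genes Hexim1 and Larp7 were not lower in the fed libraries as a group. Hexim1 measured 69.0, 52.7 and 58.1 CPM in WT fed, 75.9, 53.0 and 58.6 CPM in Alkbh5-deficient fed and 52.7 and 51.5 CPM without s4U, for a log2 fold change of 0.23 ± 0.18 (SE). Both libraries numbered 1, which also had the lowest shares of reads in no gene, were its highest, and WT fed replicate 2 and the WT unlabelled library both stood at 52.7 CPM. The same libraries had the highest neutrophil sums, 13107 and 11918 CPM, the highest levels of the monocyte genes Ly6c2 and Csf1r, and the lowest B cell sums, 46.8 and 19.7 CPM. The collagen gene Col1a1 was at 2.50 and 1.94 CPM in them, against 191 to 1176 CPM elsewhere, with the highest value in WT fed replicate 3. Without both of them, an alternative chosen after seeing the data, the Hexim1 value was 0.098 and that of Ccnt2 moved from -0.46 to -0.30. The part of these differences in Hexim1 was not tested further. Larp7 measured 122, 141 and 102 CPM in WT fed, 123, 124 and 129 CPM in Alkbh5-deficient fed and 118 and 120 CPM in unlabelled libraries, which lay inside the fed range (0.06 ± 0.145).

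**Figure D2:**
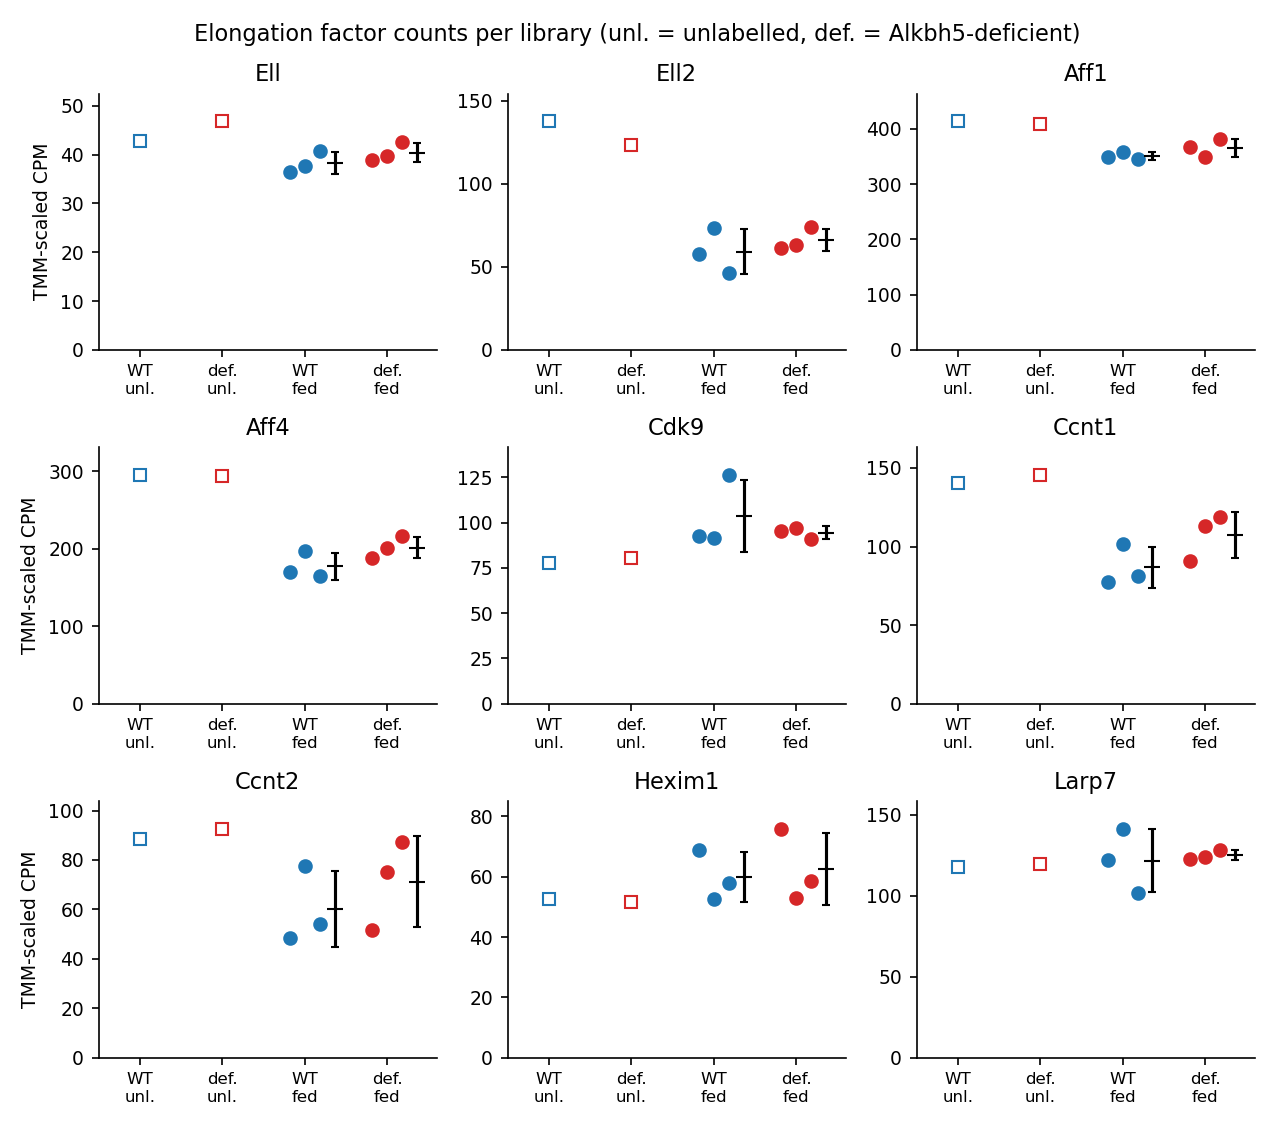
TMM-scaled CPM of the 9 tested genes in each library (vertical axes start at 0), by group. Squares are unlabelled and circles fed libraries, and black bars give the mean ± SD of the 3 fed libraries of a genotype. Ell2 shows the widest gap, with fed libraries at 46.4 to 74.0 CPM and unlabelled ones at 123 and 138 CPM.

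Counted over the 9 genes, 6 (Ell, Ell2, Aff1, Aff4, Ccnt1 and Ccnt2) had all fed libraries below both unlabelled ones. Another 2, Cdk9 and Hexim1, had all above, Hexim1 only narrowly (52.703 CPM in WT fed replicate 2 against 52.655 CPM in WT unlabelled). The same patterns held for 16.6% and 15.4% of the 14232 genes tested. Since the genes were picked with this contrast known, nothing is read from these counts. The median log2 fold change was -0.20 over the 9 genes and 0.03 over all tested genes.

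Markers of other blood cells also differed between these libraries. Over 9 neutrophil genes the summed level was 6807 to 13107 CPM in the fed libraries against 5097 and 5898 CPM in the unlabelled ones, and Mpo, the most abundant, made up 3019 to 8030 CPM. The 5 that had every fed library above both unlabelled ones were Mpo, Elane, Prtn3 and Ctsg, which encode proteins of primary granules, and Camp. That pattern held for 15.4% of the 14232 genes tested. Ltf, Ngp, S100a8 and S100a9, which mark later neutrophil stages, did not separate and were lowest in WT fed replicate 3, where S100a8 stood at 47.0 CPM against 128 and 119 CPM in the unlabelled libraries. The 7 plasma cell genes, with Xbp1 and Jchain the most abundant, summed to 548 to 1218 CPM in fed libraries and 856 and 768 CPM in unlabelled ones, and for none of them were the groups apart. The other lists summed in fed against unlabelled libraries to 545 to 1350 against 562 and 587 CPM for 6 monocyte and macrophage genes, 229 to 486 against 331 and 315 CPM for 7 erythroid genes and 136 to 382 against 128 and 130 CPM for 4 megakaryocyte genes. They summed to 208 to 846 against 266 and 238 CPM for 5 mast cell and basophil genes, 19.7 to 208 against 178 and 145 CPM for 7 B cell genes, 45.1 to 65.5 against 45.0 and 48.2 CPM for 6 T and NK cell genes and 107 to 1978 against 537 and 529 CPM for 7 stromal and endothelial genes. In these lists every fed library was above both unlabelled ones for 2 monocyte and macrophage genes, Csf1r and Ly6c2. The same held for 1 megakaryocyte gene, Itga2b, and 1 T and NK cell gene, Nkg7. Of the 10 stem and progenitor genes 1, Kit, had every fed library below, a pattern of 16.6% of the genes tested. All 68 markers had counts in at least 1 library. The part of these cell types in the differences of the elongation genes was not tested.

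Base composition and length moved with the same contrast across the whole table. Over the 14060 tested genes with known exons, the log2 fold change of fed against unlabelled libraries had a Spearman rho of 0.58 with GC share, -0.52 with U share and -0.33 with merged exon length. Genes share libraries and are not independent, so no p is given. The 9 members spanned this range, from 40.5% GC in Ell2 and 40.7% in Ccnt2 to 56.4% in Ell, and across them rho was 0.77 with GC share and -0.73 with exon length. The lowest-GC members, Ell2, Ccnt2, Aff4 (42.5%) and Ccnt1 (43.8%), were the 4 with the lowest fold changes. They also had the longest merged exons apart from Aff1, 9157 to 13450 bases, against 2366 bases for Larp7 and 3495 for Hexim1.

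Set against the smooth trend of all genes at the same GC share, the members changed order. The trend itself stood at -0.46 at the GC share of Ell2, so Ell2 kept -0.60 after subtraction, with 109 of 8969 genes of at least 10 CPM lower. Ell moved the other way, from -0.19 to -0.49, because genes as rich in GC as Ell stood at 0.30. Ccnt2 came to -0.02, on the trend, and Cdk9 to 0.06. Aff4, Ccnt1 and Aff1 came to -0.32, -0.33 and -0.31. Hexim1 kept 0.18. Larp7 came to 0.21 with GC share, but its direction turned with exon length (-0.076) and with U share (-0.24). With exon length in place of GC share Ell2 came to -0.87, Aff4 to -0.37, Ccnt1 to -0.39, Cdk9 to 0.33 and Aff1 to -0.02. With U share, an alternative chosen after seeing the data, Ell2 came to -0.79, Aff4 to -0.46, Ccnt2 to -0.01 and Hexim1 to 0.07. Ell2 was the lowest of the 9 under all 3 corrections. The genes were picked with its lower value known, so this place is a description and no support for the difference.

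**Figure D3:**
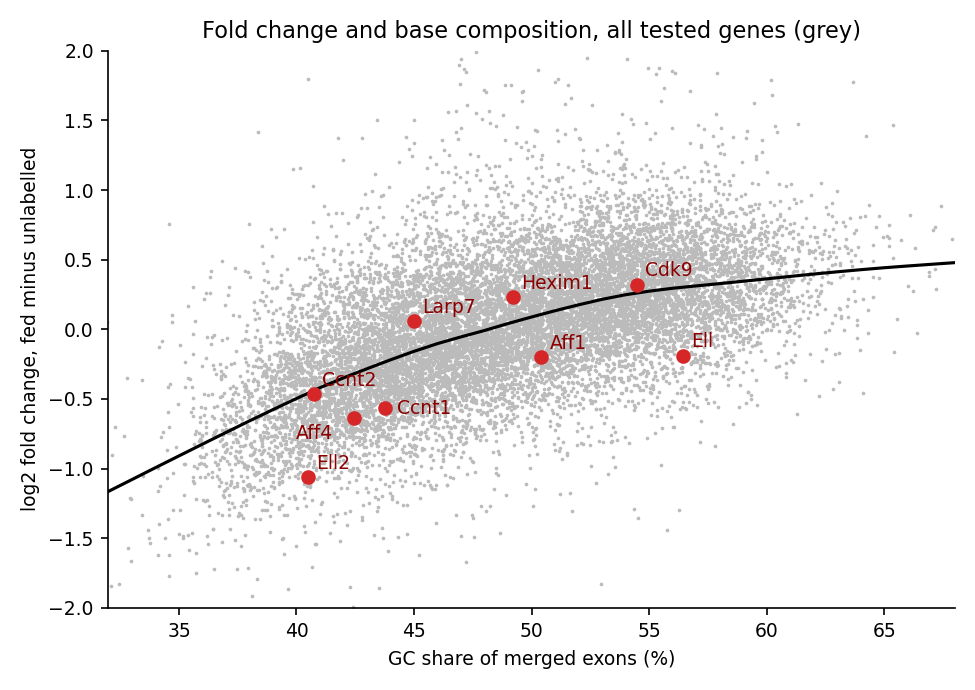
Log2 fold change of fed against unlabelled libraries (vertical axis) by GC share of merged exons in percent (horizontal axis). Grey points are tested genes (57 of 14060 lie outside the axes), the black line is their lowess trend and red points are the 9 members. Ell2 lies 0.60 below the line, Ccnt2 on it and Ell 0.49 below it.

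The question of the genotype comparison was whether loss of the demethylase changed the level of these transcripts. None of the 9 members passed the threshold between WT and Alkbh5-deficient fed libraries (edgeR, smallest adjusted p = 1.00), 0 had an unadjusted p under 0.05 and DESeq2 called 0. Of the 13342 genes tested, 0.0075% were called by edgeR and 0.00803% of those with an adjusted p by DESeq2, 1.13% had an unadjusted p under 0.05 and 5.62% had groups that did not overlap, against 0 members. The median log2 fold change was 0.08 over the members and 0.00 over all genes. Ccnt1 had the smallest p, with 86.8 ± 12.9 CPM in the fed libraries of WT cells against 108 ± 14.5 CPM in those of Alkbh5-deficient cells (SD, n = 3 each) and a log2 fold change of 0.31 ± 0.18 (SE, edgeR unadjusted p = 0.126). Ell2 had 59.1 ± 13.5 against 66.2 ± 6.80 CPM (SD, n = 3 each), a log2 fold change of 0.16 ± 0.20 (SE), which was 0.015 without WT fed replicate 3 and 0.35 without WT fed replicate 2. That of Ccnt2 was lowest, at 0.061, when Alkbh5-deficient fed replicate 3 was left out, and highest, at 0.48, when WT fed replicate 2 was. Over all 6 libraries the values of Ccnt2 and Aff4 were 0.24 ± 0.26 and 0.18 ± 0.15, and Cdk9 had the only negative one, -0.13 ± 0.17 (SE). Ell, Hexim1, Aff1 and Larp7 lay between 0.03 and 0.08, with SEs of 0.14 to 0.19. A miss of the threshold does not show that the levels were equal.

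Libraries numbered 3 differed most in this comparison. Between same-numbered libraries Ell2 differed by 0.09, -0.22 and 0.67 on the log2 scale for numbers 1, 2 and 3. For Ccnt2 the differences were 0.08, -0.05 and 0.69, for Ccnt1 0.23, 0.15 and 0.54 and for Cdk9 0.04, 0.09 and -0.48. In each of these genes number 3 gave the largest difference, as it did for Aff4 (0.39), Larp7 (0.33) and Aff1 (0.14) but not for Ell or Hexim1, and WT fed replicate 3 is the library with 14.2% of its counts in Gm26917, whose part in these differences was not tested. Without that library the genotype log2 fold change of Cdk9 was 0.039 and that of Larp7 -0.073, opposite in sign to the values over all 6. Between the unlabelled libraries, which have no replicates, Ell2 differed by -0.16, Ell by 0.13 and the 7 others by -0.03 to 0.07.

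**Figure D4:**
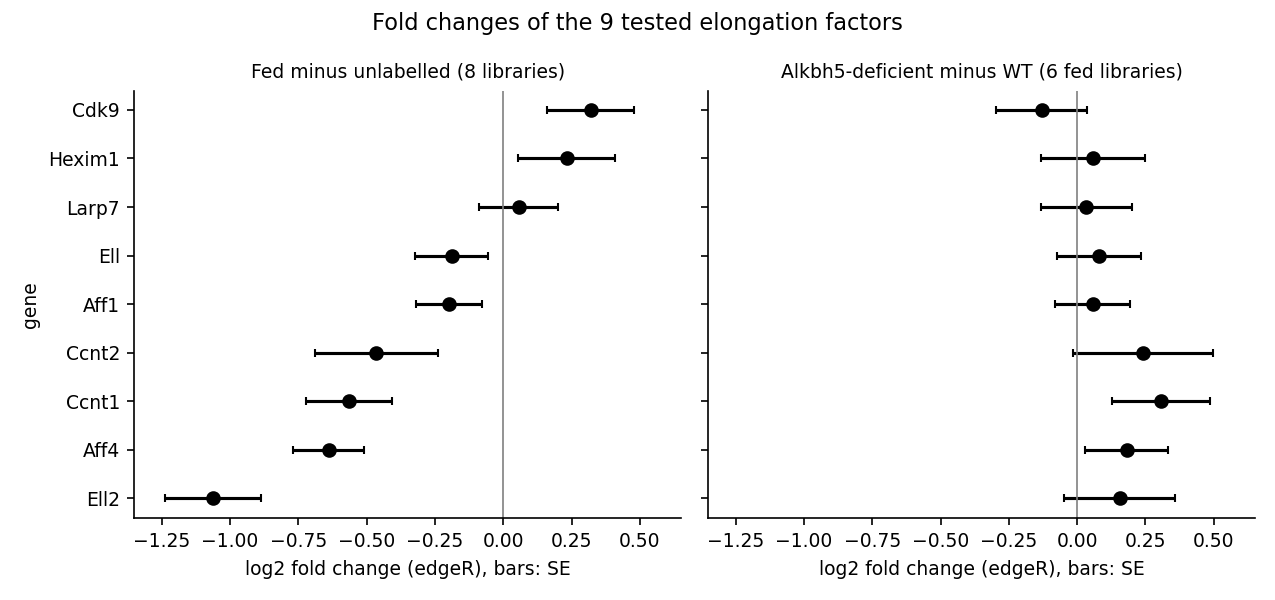
Log2 fold changes of the 9 genes (edgeR, points) with their standard errors (bars) for fed against unlabelled libraries on the left and Alkbh5-deficient against WT fed libraries on the right. The left panel runs from -1.06 for Ell2 to 0.32 for Cdk9, and in the right panel values lie between -0.13 and 0.31.

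Whether the fed against unlabelled difference depended on genotype was tested by the interaction of the 2 factors. No member passed (edgeR, smallest adjusted p = 1.00), 0 of 9 had an unadjusted p under 0.05, against 0.16% of 14988 genes, and 0% of all genes were called by edgeR or by DESeq2. The interaction of Ell2 was 0.32 ± 0.39 (SE, edgeR unadjusted p = 0.438), the difference being larger in WT. It rests on 1 unlabelled library per genotype, so its error is wide.

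Over the 8 libraries, 5 genes tracked Ell2 most closely among 8675 with a mean of at least 10 CPM. They were the nucleoporin gene Nup153 and the genes Larp4, Gtpbp4, Mat2a and Nmt2, each with a Pearson r of 0.99 for log2 CPM. Larp4 encodes an RNA-binding protein that binds poly(A), Gtpbp4 a GTPase of ribosome assembly, Mat2a the enzyme that makes S-adenosylmethionine and Nmt2 a protein myristoyltransferase. Their log2 fold changes in fed against unlabelled libraries ran from -0.58 for Gtpbp4 to -0.86 for Mat2a, and their GC shares from 38.0% to 45.4%. Of the members, Aff4 (r = 0.98) and Aff1 (0.94) were most like Ell2 and Cdk9 (-0.88) least. Genes that tracked Hexim1 included Sept9, Emilin2, Vim and Abr, with r from 0.98 to 0.99, and these were richer in GC, at 48.3% to 56.0%. All these values share the same 8 libraries and are a description without a test.

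Other genes of the elongation machinery were taken from 7 lists of 54 genes. In the fed against unlabelled contrast 53 were tested and 0 passed in either direction by edgeR. At an unadjusted p under 0.05, 6 were higher and 10 lower, and DESeq2 called 1 higher and 0 lower. Of the 14232 genes tested, edgeR called 0.0281% after adjustment, and at an unadjusted p under 0.05 it had 9.97% higher and 10.3% lower, 20.2% in all. DESeq2 called 3.88% higher and 3.19% lower, 7.07% in all, of the 8357 genes to which it gave an adjusted p. Their median log2 fold change was -0.13. Between genotypes 52 were tested, 0 passed, 0 had an unadjusted p under 0.05 and DESeq2 called 0, with a median of 0.03.

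The pausing factors NELF and DSIF, on which P-TEFb acts, had positive values for 6 of 6 genes in the fed against unlabelled contrast, with a median of 0.28 and GC shares of 48.1% to 57.0%. Nelfe, an RNA-binding subunit of NELF, measured 35.7 and 34.0 CPM in WT and Alkbh5-deficient unlabelled libraries, 57.3, 45.9 and 65.1 CPM in WT fed and 50.8, 49.5 and 46.1 CPM in Alkbh5-deficient fed libraries. Its log2 fold change was 0.59 ± 0.17 (SE, adjusted p = 0.162 in edgeR and 0.0404 in DESeq2), and it was the 1 gene of these lists that DESeq2 called. Supt5, the large subunit of DSIF, had 0.32 ± 0.16. The other kinases that act on the polymerase tail, with their cyclins, had negative values for 8 of 8 genes, a median of -0.29 and GC shares of 35.7% to 52.8%. Cdk12 was at -0.33 ± 0.13 (SE) and Ccnc, the cyclin of the Mediator kinase, at -0.73 ± 0.28, with edgeR adjusted p of 0.207 for both.

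Partners of the ELL proteins in the super and little elongation complexes had negative values for 8 of 9 genes. Their median was -0.49, against 0.03 over all tested genes. The 8 with negative values had GC shares from 40.1% (Eaf2) to 51.5% (Aff3), and the part of base composition in these values was not tested. Zc3h8, of the little elongation complex, was at -0.91 ± 0.29 (SE) on 11 to 54 counts per library. Mllt1, whose protein ENL reads acetylated histones and recruits the super elongation complex, was the exception at 0.38 ± 0.16. It measured 55.8 and 63.0 CPM unlabelled and 67.0 to 89.5 CPM fed, and its GC share was 59.4%. Genes of the PAF complex and of histone chaperones had 8 of 10 negative values and a median of -0.19. Iws1 (41.2% GC) was at -0.53 ± 0.16 and Rtf1 (46.5% GC) at -0.43 ± 0.14 (SE). TFIIS, elongin and TFIIF genes were divided, 3 positive and 4 negative, with Elob (56.1% GC) at 0.48 ± 0.17 and Gtf2f1 (55.6% GC) at 0.46 ± 0.18. Among 5 genes of the complex that activates 7SK and snRNA transcription, Snapc1 was at -0.61 ± 0.21 and Snapc2 at 0.76 ± 0.31 (SE). Their GC shares were 42.8% and 58.4%. None of these passed after adjustment in edgeR.

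The 7SK particle genes stood near the median of all genes. Rn7sk, the 7SK RNA, measured 4013 and 4177 CPM in the WT and Alkbh5-deficient unlabelled libraries, 2105, 5562 and 3981 CPM in WT fed and 4565, 5041 and 5453 CPM in Alkbh5-deficient fed libraries. WT fed replicate 1 was the lowest, below every other library, and the fed and unlabelled ranges overlapped. The log2 fold change of Rn7sk was 0.10 for fed against unlabelled libraries and 0.37 ± 0.32 (SE, edgeR unadjusted p = 0.285) for genotype. The 8 genes of this list had a median of 0.10 for fed against unlabelled libraries, with 6 positive values. Srsf2, a splicing factor that binds 7SK, was at 0.36 ± 0.16 and Jmjd6, a dioxygenase, at -0.09 ± 0.12 (SE). Between genotypes Hexim2, the paralogue of Hexim1, was at 0.50 ± 0.35 (SE) on 13 to 35 counts per library.

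Between genotypes the smallest unadjusted p among the listed genes belonged to Snapc1, a subunit of the complex that activates snRNA genes, at 0.44 ± 0.23 (SE, adjusted p = 1.00 in edgeR). It measured 25.3, 20.8 and 16.0 CPM in WT fed and 33.8, 25.3 and 25.6 CPM in Alkbh5-deficient fed libraries. The groups only just failed to overlap, with 25.317 CPM as the highest WT and 25.346 CPM as the lowest Alkbh5-deficient value. Of the 13342 genes tested, 5.62% had groups that did not overlap. Snapc4, of the same complex, was at -0.18 ± 0.18. Cdc73, a subunit of the PAF complex, was at 0.35 ± 0.24 and its partner Wdr61 at -0.21 ± 0.24. The kinase gene Cdk7 was at 0.28 ± 0.18 and Ccnk, the cyclin of CDK12, at 0.20 ± 0.21. Among transcript cleavage and elongin genes, Tcea2 was at -0.62 ± 0.41 and Eloc at 0.35 ± 0.32, both on low levels of at most 21.1 CPM. WT fed replicate 3 had 7.60 CPM of Eloc, against 19.3 and 16.3 CPM in WT fed replicates 1 and 2. It had 4.09 CPM of Tcea2 against 2.17 and 3.11, and 33.3 CPM of Cdc73 against 43.8 and 59.6. For Cdk7 it was the highest WT fed library (16.0 CPM), against the sign of the difference. The part of this library in these values was not tested. Zc3h8 was at 0.37 ± 0.37, Aff3, another AFF scaffold, at -0.21 ± 0.21, Nelfe at -0.20 ± 0.17 and Nelfa at 0.18 ± 0.15. The sign differed from gene to gene, and each of these values lay within 2 SE of 0.

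**Figure D5:**
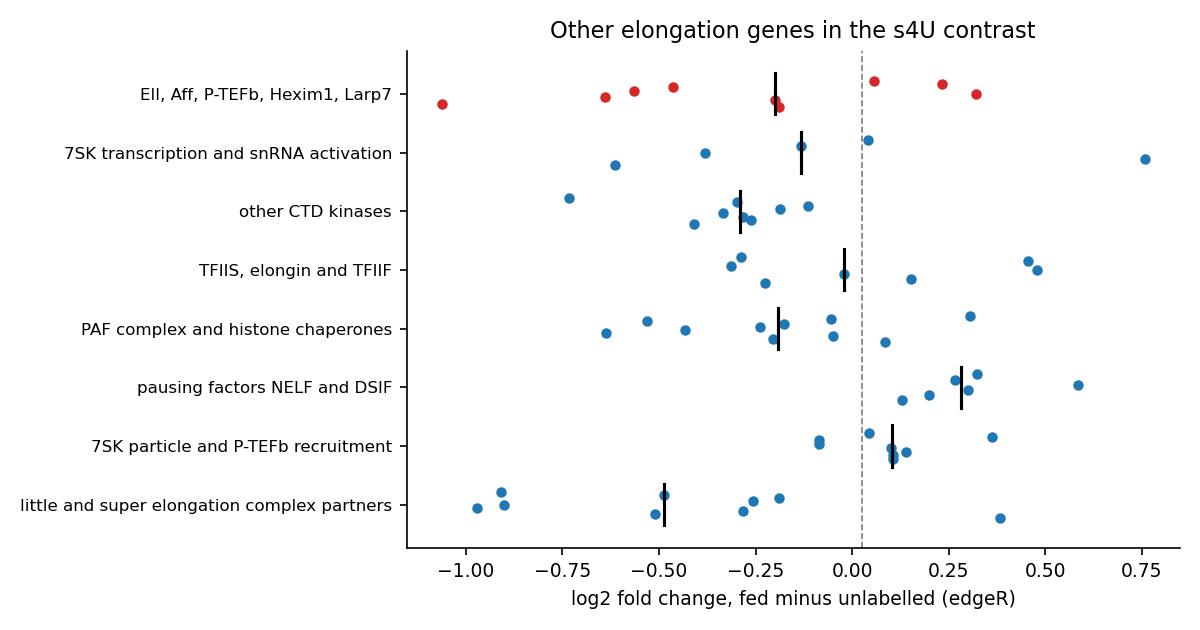
Log2 fold change of fed against unlabelled libraries (horizontal axis, edgeR) for tested genes of 7 elongation lists (blue) and the 9 members (red), 1 point per gene. Black bars are list medians and the dashed line is the median of all tested genes, 0.03. NELF and DSIF genes lie to the right of it and the other CTD kinases to the left.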

How the data were processed

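RNA was measured in 8 libraries, and each deposited file holds the authors' read counts per gene for 1 library, not normalized. The submitters' processing notes name HTSeq among the tools, beside HISAT2, STAR, cutadapt, Picard and DESeq2, and the builds mm10 and GRCm38. What each tool did, its version and the strand setting are not given there, so antisense and overlapping genes cannot be separated. A file holds 27710 gene rows and 928 other rows that are not assigned to a single gene, among them rows for reads shared by several genes. Reads in no gene (37.6% to 52.1%) and in several genes (0.654% to 0.984%) stayed out of library sizes and tests.

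Tests used edgeR 4.0.16 in R 4.3.3 (TMM, default filter, robust quasi-likelihood fits, Benjamini-Hochberg at 0.05 over all tested genes). The genotype contrast took the 6 fed libraries, the s4U contrast all 8 with genotype as covariate, and the interaction all 8. The SE of a log2 fold change is its size divided by the root of F. CPM were TMM-scaled over 8 libraries. Lengths, composition and coordinates came from GENCODE M21, in which 27011 symbols matched 1 gene. DESeq2 1.42.0, RLE factors, other filters, trend corrections (lowess, span 0.3), the replicate block and left-out libraries were the alternatives. Fits were tried on simulated data in which all genes had the same set spread, which need not match that of these libraries. Simulated libraries differed only in size and in the set changes, which were put only into genes with higher counts. The real libraries also differed in Xist, Ddx3y and marker genes. Of changes of 1 log2 unit, 97% were recovered for genotype, 96% for s4U and only 21% for the interaction.

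The members and lists were chosen with earlier results of these data known. The text names all 10 members, up to 2 genes per list with the smallest unadjusted p in each of the s4U and genotype contrasts, and the 5 genes most correlated with Ell2 and with Hexim1 (log2 CPM, prior count 2, mean of at least 10 CPM, predicted genes left out). One gene this rule names is not reported here. The labels give the s4U treatment text for all 8 samples, and the agent label, s4U feed or None, set the groups. Deviations from group means correlated between same-numbered WT and Alkbh5-deficient fed libraries (r = 0.68, 0.29 and 0.19 for numbers 1, 2 and 3). The numbers, given in the labels, were used as pairs only in the replicate block and in the differences between same-numbered libraries. The main genotype test used genotype alone, without pairs. Only number 1 stood out, since WT 2 with Alkbh5-deficient 3 and WT 3 with Alkbh5-deficient 2 reached 0.35 each.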

Additional observations from a re-analysis of the deposited data

How the results depend on the processing

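Calls over all genes depended on the setting, and those of the genotype and interaction contrasts for the 9 members did not: no member passed under any of 14 alternatives for genotype or 11 for the interaction. The 1 gene called between genotypes became 2 without a low-count filter and 2 with DESeq2, and was 1 in the fit with the replicate block, which changed no call of a member. The 4 genes called in the s4U contrast became 37 without a low-count filter, 591 with DESeq2, 0 to 2 when a library was left out (2 without WT fed replicate 2, 1 without Alkbh5-deficient fed replicate 1, 0 without any other), 1 without both fed libraries numbered 1 (chosen after seeing the data), and 0 within WT and 0 within Alkbh5-deficient cells. The Ell2 value of -1.06 became -0.60 after correction for GC share and -0.79 after correction for U share. Ell, Ell2, Aff1, Aff4, Ccnt1 and Ccnt2 stayed negative and Cdk9 and Hexim1 positive in all 19 alternatives of that contrast. Fed and unlabelled values of these genes did not overlap, so leaving out a library could hardly turn a sign. The genes were also picked with this contrast known, so the stable signs are a description and no support for the differences. Larp7 kept its sign in 16 of them. Aff1 came to -0.019 with correction for exon length and Ccnt2 to -0.0083 with correction for U share. When libraries were left out, genotype values ran from -0.21 to 0.039 for Cdk9 and -0.073 to 0.16 for Larp7 (sign changed without WT fed replicate 3) and -0.10 to 0.17 for Hexim1 (changed when Alkbh5-deficient fed replicate 1, or else WT fed replicate 2, was absent). Interaction values ran from -0.091 to 0.011 for Ell, -0.26 to 0.0041 for Cdk9, -0.073 to 0.22 for Hexim1 and -0.076 to 0.14 for Larp7 (sign changed without WT fed replicate 3, for Hexim1 without Alkbh5-deficient fed replicate 1, and for Larp7 also without Alkbh5-deficient fed replicate 3), and that of Larp7 was -0.00073 without the filter. An interaction without an unlabelled library could not be fitted. Levels of 7 members moved by more than 1 SD with the longest transcript as length. The causes were not tested. Ell3, with 3 counts in all, is below what this depth can compare.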
